A study of Rattus norvegicus and Mus musculus with 18 samples.

Results

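Heat shock proteins and other chaperones were examined in mouse skin wounds as 10 genes named by symbol: Hspa1a, Hspa1b, Hspa8, Dnajb1, Hsph1, Hsp90aa1, Hsp90ab1, Hspb1, Hspd1 and Hspe1. Their Ensembl rows were found by symbol among the 49548 genes of the mouse table, and all 10 passed the filter on low values that kept 15982 genes for testing. The groups were mouse wound epidermis (3 libraries) and mouse wound dermis (3 libraries), from adult mice, both taken 1 day after the scab came off, the time at which, by the study's description, hair follicles regenerate in mice. The labels give no genotype, strain, sex or exact age, and no treatment other than the wound that both groups share. Nor do they state if replicates were different animals; p-values here reflect only how these libraries vary, which may be technical. The series holds 18 libraries in all. The rat libraries were not used, because rat genes are listed by identifiers that could not be paired with names.

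Chaperones bind unfolded or newly made proteins and keep them from clumping until they fold. HSP70 proteins work in cycles of ATP hydrolysis that J-domain proteins start and nucleotide exchange factors reset, while HSP90 proteins finish the folding of kinases and steroid receptors with the help of co-chaperones. Some members of these families are made at all times and others mainly after stress, when heat shock factor 1, a transcription factor, binds repeats of a short element in their promoters. In the epidermis, the small heat shock protein HSPB1 is best known from the differentiating layers.

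The libraries carried the markers of their labelled tissue. All 7 markers of differentiating keratinocytes and all 5 of basal keratinocytes were higher in wound epidermis, with summed levels of 35770 to 84330 and 6703 to 17630 TPM, against 306.9 to 13490 and 236 to 3344 TPM in wound dermis. TPM expresses each gene's transcripts, corrected for transcript length, as a share of its library. The 5 endothelial and 6 macrophage markers were all lower too, at 3.1 to 9.55 and 56.45 to 75.52 TPM summed in wound epidermis, against 215.5 to 343.7 and 656.6 to 1136 TPM in wound dermis, and the 3 adipocyte markers were below 1 TPM in every library. All 6 fibroblast markers were lower, at 9.67 to 100.4 TPM summed in wound epidermis and 42450 to 67060 TPM in wound dermis. Wound dermis replicate 2 stood apart, since its differentiating keratinocyte markers reached 22.6% of the epidermis mean, against 0.898% in wound dermis replicate 1 and 0.515% in replicate 3. For the 10 genes and their ratios, values without this library are given below. Between 13117 and 14012 genes reached 1 TPM in the wound epidermis libraries and between 15958 and 16257 in the wound dermis libraries. The sequencing depth is unknown, because TPM keeps no record of it, so no counting error can be given.

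The stress-inducible chaperones Hspa1a and Hspa1b, the J-domain protein Dnajb1 and the small heat shock protein Hspb1 were higher in wound epidermis than in wound dermis. The constitutive HSP70 gene Hspa8, its exchange factor Hsph1, both cytosolic HSP90 genes and the mitochondrial pair Hspd1 and Hspe1 did not pass the test in either direction. Those that did not pass include Hsp90aa1, the more stress-inducible HSP90 gene, so the split is not one of inducible against constitutive genes. So 4 of the 10 genes were higher at a limma adjusted p under 0.05, where 17.0% of all tested genes were higher and 56.3% passed in either direction. None of the 10 was lower by limma at that threshold, where 39.3% of all tested genes were. At an unadjusted p under 0.05, 5 were higher, with Hsp90ab1 added, and 1, Hsph1, was lower. The share of all tested genes at an unadjusted p was not counted. In either direction it cannot be below the 56.3% that passed after adjustment, so these counts do not set the 10 genes apart. The 3 libraries of each group did not overlap for 7 of the 10 genes, where 66.0% of all tested genes did not. Of these, 5 were those with wound epidermis higher, where 20.8% of all tested genes were, and 2 with it lower, where 45.3% were. The median log2 fold change of the 10 genes was 0.27, beside -0.42 over all tested genes. Log2 fold changes here are wound epidermis over wound dermis on the log2(TPM + 1) scale, which understates the change of genes near 1 TPM. These are bulk tissues, in which fewer cells of a type and less RNA per cell cannot be told apart.

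**Figure D1:**
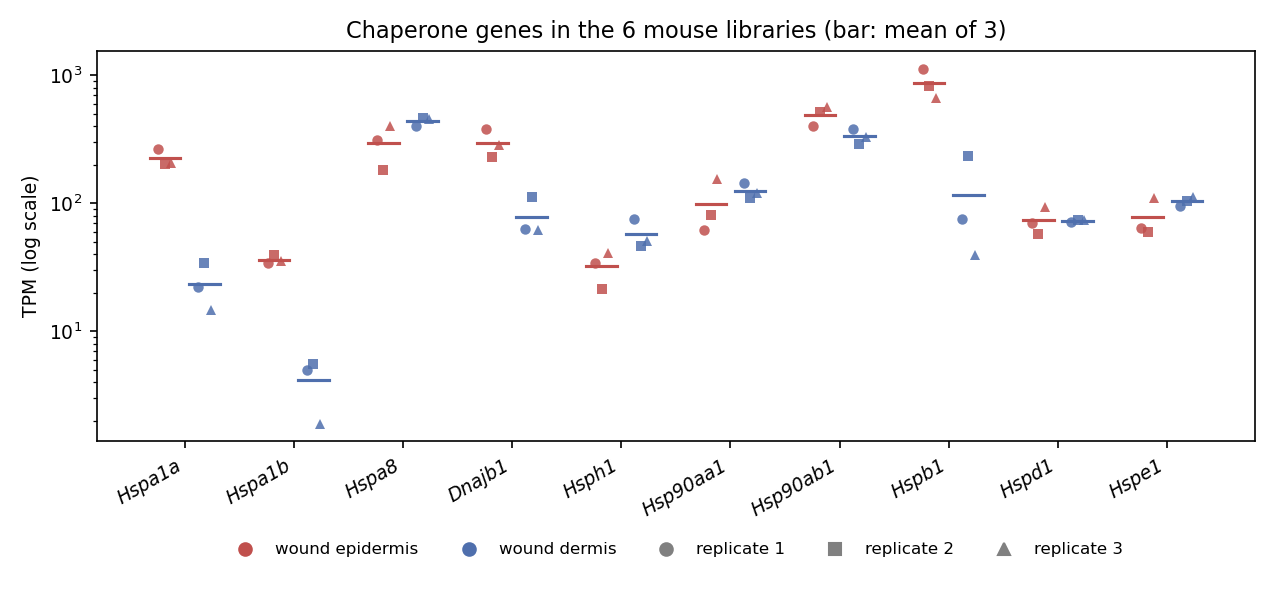
TPM of the 10 chaperone genes (log scale) in each wound epidermis and wound dermis library. Each symbol is a library, its shape the replicate number, and each bar the mean of 3 libraries; Hspb1 and Hspa1a show the wide gaps between tissues and Hspd1 overlaps.

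Hspa1a and Hspa1b encode nearly the same inducible HSP70 protein. Both are protein-coding genes of 1 exon on the minus strand of chromosome 17, Hspa1a at chr17:34969190-34972156 and Hspa1b at chr17:34956436-34959238 (mm10, GENCODE), with annotated starts 12918 bases apart. Their coding parts of 1923 and 1926 bases differ at 8 of 1923 aligned positions (99.58% identity), beside 3 bases in a gap, and the longest identical run is 638 bases. The stretch below, coding bases 1331 to 1416 of both genes, is as long as the longer of the study's reads (86 bases). It was chosen as a coding stretch of that length with the most differences, 2, shown in capitals. Hspa1a is read from chr17:34970510-34970595 and Hspa1b from chr17:34957592-34957677, both mm10, minus strand, 5′ to 3′.
Hspa1a: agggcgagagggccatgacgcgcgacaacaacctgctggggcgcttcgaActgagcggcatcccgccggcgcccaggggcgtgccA
Hspa1b: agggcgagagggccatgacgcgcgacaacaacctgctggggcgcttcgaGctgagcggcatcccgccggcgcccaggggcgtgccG
Of all 86-base windows of the coding part of Hspa1a, 72.3% were found unchanged in Hspa1b, and of the 43-base windows, the study's shorter read length, 84.4% were. After the coding part, 0% of windows of either length were shared. The split of reads between the copies therefore rests on the part after the coding sequence and the few differing bases, and each gene's own level is uncertain where their sum is less so.

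Hspa1a stood at 265.05, 201.93 and 205.71 TPM in wound epidermis replicates 1, 2 and 3, against 22.07, 33.86 and 14.67 TPM in wound dermis replicates 1, 2 and 3. Every wound epidermis library was far above every wound dermis library. Mean levels were 224 ± 35.4 TPM and 23.5 ± 9.68 TPM (SD, n = 3 each), and the log2 fold change was 3.26 ± 0.31 (SE, limma adjusted p = 0.00018). Hspa1b, at lower levels, showed the same gap. It stood at 34.07, 39.37 and 35.55 TPM in wound epidermis, against 4.97, 5.50 and 1.89 TPM in wound dermis, and its log2 fold change was 2.95 ± 0.33 (SE, limma adjusted p = 0.00036). Summed as 1 gene, the copies had a log2 fold change of 3.26 (limma adjusted p = 0.00019). Hspa1a was 7.78, 5.13 and 5.79 times Hspa1b in wound epidermis and 4.44, 6.16 and 7.76 times in wound dermis. The ratio of the copies thus overlapped between the tissues, with a log2 difference of 0.04 ± 0.29 (SE, two-sided exact permutation p = 0.9, n = 3 each).

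Gm20481, annotated as protein-coding on the opposite strand, overlaps Hspa1a by 2225 bases. It stood at 79.16, 52.37 and 46.11 TPM in wound epidermis, against 8.00, 7.22 and 5.36 TPM in wound dermis, and its log2 fold change was 2.91 ± 0.27 (SE, limma adjusted p = 0.00014). It was named after its values were seen. No source used here says that counting used the strand. Reads of Hspa1a and of Gm20481 therefore cannot be told apart where their transcripts share sequence. Searched on both strands, 67.8% of the 43-base windows of Hspa1a occur in other genes' transcripts, mainly those of Hspa1b (60.6%). The rest occur in no other gene's transcripts. With Hspa1a, Hspa1b and Gm20481 summed, an alternative chosen after seeing the data, the log2 fold change was 3.23 (limma adjusted p = 0.00015).

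Hspa8, on chromosome 9 (chr9:40800984-40810087, plus strand), encodes HSC70, the HSP70 of unstressed cells. It stood at 311.23, 183.43 and 399.93 TPM in wound epidermis, against 403.53, 465.83 and 458.34 TPM in wound dermis. All 3 wound epidermis libraries were below the lowest wound dermis library, replicate 3 by the least. The log2 fold change of -0.64 ± 0.31 (SE) did not pass the test (limma adjusted p = 0.12). It passed without wound epidermis replicate 3, at -0.88 (limma adjusted p = 0.044), and under quantile normalization, at -0.91 (0.014), while median-of-ratios scaling gave -0.16 (0.57). Hspa8 shares much of its sequence with a processed pseudogene, Gm15459, which held 71.6% of its 43-base windows and was itself listed at 195.08, 52.72 and 291.91 TPM in wound epidermis, against 165.88, 342.65 and 344.26 TPM in wound dermis. Summed with it, also chosen after seeing the data, Hspa8 had a log2 fold change of -0.72 (limma adjusted p = 0.17).

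Dnajb1, on chromosome 8 (chr8:83608193-83612653, plus strand), encodes HSP40, the J-domain partner of inducible HSP70. It stood at 382.98, 228.87 and 285.37 TPM in wound epidermis, against 63.33, 111.17 and 61.64 TPM in wound dermis. The lowest wound epidermis library was still above the highest wound dermis library. The means were 299 ± 78.0 TPM and 78.7 ± 28.1 TPM (SD, n = 3 each), and the log2 fold change was 1.94 ± 0.31 (SE, limma adjusted p = 0.0019). Reads of Dnajb1 have little room to be misplaced, since 0.711% of its 43-base windows and 0% of its 86-base windows occur in transcripts of other genes.

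Hsph1, on chromosome 5 (chr5:149614287-149636376, minus strand), encodes HSP110, a nucleotide exchange factor that also holds unfolded protein. It stood at 34.10, 21.45 and 41.08 TPM in wound epidermis, against 75.71, 46.47 and 50.62 TPM in wound dermis. The groups did not overlap and wound epidermis was lower, with means of 32.2 ± 9.95 TPM and 57.6 ± 15.8 TPM (SD, n = 3 each). The log2 fold change of -0.83 ± 0.31 (SE) lay at the edge of the threshold (limma adjusted p = 0.051). The adjusted p was under it without wound epidermis replicate 3, at -1.03 (0.036), without the 50 most abundant genes, at -0.86 (0.041), and with a filter of 5 TPM (0.0497). It was not with median-of-ratios scaling, at -0.37 (0.25), or quantile normalization, at -0.58 (0.12). In all, Hsph1 passed in 4 of 16 alternatives. None of the sequence windows of Hsph1, of either length, occurs in another gene's transcripts.

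The inducible and constitutive HSP70 genes thus stood in different proportions in the tissues. Hspa1a and Hspa1b together were 0.961, 1.32 and 0.603 times Hspa8 in wound epidermis, against 0.067, 0.0845 and 0.0361 times in wound dermis. Such a ratio within a library does not depend on how the library is scaled. Every wound epidermis ratio was above every wound dermis ratio, and the log2 difference was 3.96 ± 0.49 (SE). Dnajb1 was 1.23, 1.25 and 0.714 times Hspa8 in wound epidermis, against 0.157, 0.239 and 0.134 times in wound dermis, with a log2 difference of 2.59 ± 0.36 (SE). For each the two-sided exact permutation p was 0.1, the smallest that 3 against 3 libraries allow, and 0.125 adjusted over the 5 ratios examined, so neither could pass 0.05.

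The HSP90 genes encode the cytosolic HSP90α (Hsp90aa1), the more stress-inducible form, and HSP90β (Hsp90ab1), the steadily expressed form. Hsp90aa1, on chromosome 12 (chr12:110690605-110702728, minus strand), stood at 61.33, 81.11 and 155.81 TPM in wound epidermis, against 143.35, 109.18 and 119.83 TPM in wound dermis. The groups overlapped only because wound epidermis replicate 3 was the highest of the 6 libraries. The log2 fold change was -0.42 ± 0.35 (SE, limma adjusted p = 0.34) with it and -0.80 (limma adjusted p = 0.033) without it, and 0.05 (limma adjusted p = 0.90) under median-of-ratios scaling. Hsp90ab1, on chromosome 17 (chr17:45567775-45573271, minus strand), stood at 405.71, 515.45 and 562.75 TPM in wound epidermis, against 383.38, 293.58 and 327.33 TPM in wound dermis. The groups did not overlap and wound epidermis was higher, but the log2 fold change of 0.56 ± 0.22 (SE) did not pass the test (limma adjusted p = 0.067). Median-of-ratios scaling gave 1.03 (limma adjusted p = 0.0069) and quantile normalization 0.24 (0.40).

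Within a library, Hsp90aa1 was 0.151, 0.157 and 0.277 times Hsp90ab1 in wound epidermis, against 0.374, 0.372 and 0.366 times in wound dermis. The wound dermis ratios were almost equal and all above the wound epidermis ratios. The log2 difference was -0.98 ± 0.28 (SE, two-sided exact permutation p = 0.1, n = 3 each; 0.125 adjusted over the 5 ratios). Of the 43-base windows of Hsp90aa1 60.0% occur in other genes' transcripts, mainly those of Gm12346, which was listed at 2.83 to 5.92 TPM, and of those of Hsp90ab1 6.9% do.

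Hspb1, on chromosome 5 (chr5:135887919-135889563, plus strand), encodes HSP25 of the mouse, the counterpart of human HSP27, a small heat shock protein that works without ATP. It was the most abundant of the 10 in wound epidermis, at the 99.1 percentile of all tested genes there. It stood at 1133.78, 821.53 and 671.88 TPM in wound epidermis, against 75.45, 232.94 and 39.42 TPM in wound dermis. The lowest wound epidermis library was well above the highest wound dermis library, replicate 2. The means were 876 ± 236 TPM and 116 ± 103 TPM (SD, n = 3 each), and the log2 fold change was 3.25 ± 0.60 (SE, limma adjusted p = 0.0034). Its SE was the largest of the 10. Of the 43-base windows of Hspb1 53.8% occur in other genes' transcripts, mainly those of Hsp25-ps1, which was listed at 0 TPM in every library. Without wound dermis replicate 2 the log2 fold change was 3.95 (limma adjusted p = 2.47e-04), and without wound dermis replicate 3 it was 2.68 (0.0086).

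Hspd1 and Hspe1 encode HSP60 and its lid HSP10, which together form the folding chamber of mitochondria. They lie head to head on chromosome 1, Hspd1 at chr1:55077835-55088243 on the minus strand and Hspe1 at chr1:55088132-55091307 on the plus strand, with starts 111 bases apart and an overlap of 112 bases. Hspd1 stood at 70.63, 57.58 and 93.99 TPM in wound epidermis, against 71.87, 73.79 and 73.75 TPM in wound dermis. The wound dermis libraries were nearly equal and lay within the wound epidermis range, and the log2 fold change was -0.01 ± 0.22 (SE, limma adjusted p = 0.97). Under median-of-ratios scaling it was 0.46 (limma adjusted p = 0.041). Hspe1 stood at 63.96, 60.04 and 109.51 TPM in wound epidermis, against 94.90, 105.20 and 112.89 TPM in wound dermis. Wound epidermis replicate 3 alone reached the wound dermis range, and the log2 fold change was -0.47 ± 0.27 (SE, limma adjusted p = 0.17), or -0.74 (limma adjusted p = 0.025) without that library. The ratio of Hspe1 to Hspd1 was 0.906, 1.04 and 1.17 in wound epidermis, against 1.32, 1.43 and 1.53 in wound dermis, without overlap. Its log2 difference was -0.46 ± 0.12 (SE, two-sided exact permutation p = 0.1, n = 3 each; 0.125 adjusted over the 5 ratios). Of the 43-base windows of Hspd1 48.0% occur in other genes' transcripts, and of those of Hspe1 49.5% do.

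**Figure D2:**
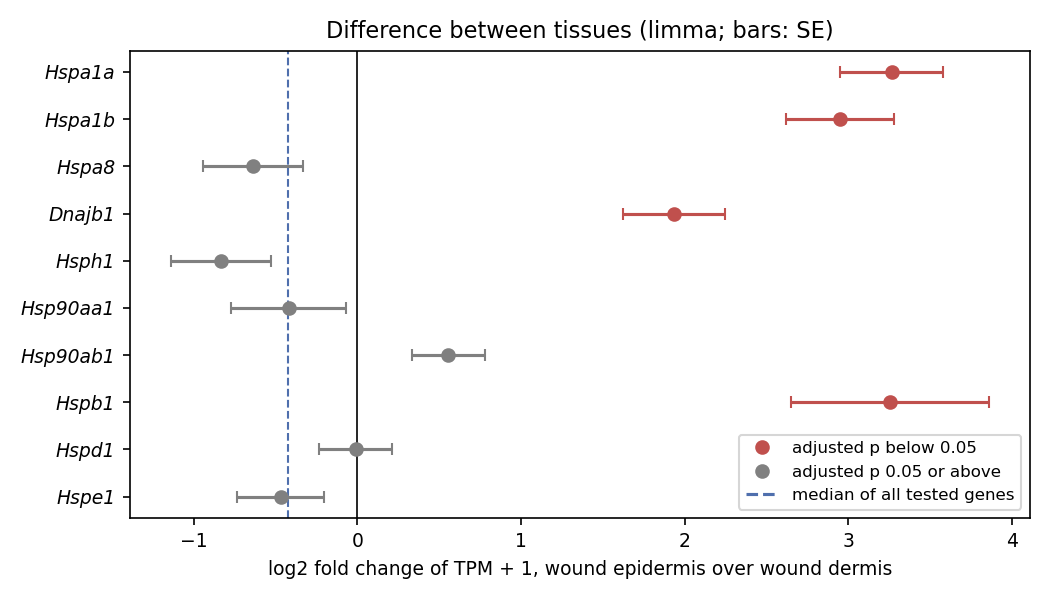
Log2 fold change of TPM + 1, wound epidermis over wound dermis, for each chaperone gene, with its standard error from limma. Red points passed an adjusted p of 0.05, grey points did not, and the dashed line is the median of all tested genes, -0.42; the 4 red points lie at 1.94 to 3.26.

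**Figure D3:**
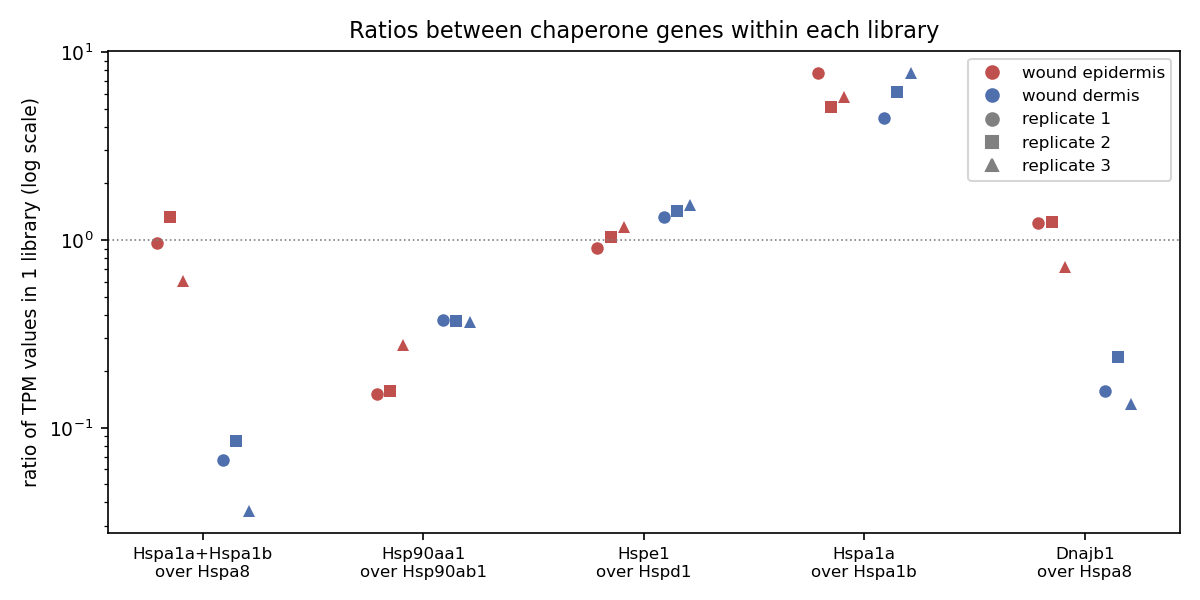
Within-library ratios of chaperone genes (log scale) in wound epidermis and wound dermis. Each symbol is a library, and the dotted line marks equal levels; the tissues do not overlap in 4 of the 5 ratios and overlap for Hspa1a over Hspa1b.

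The order of the genes by mean TPM differed between the tissues. In wound epidermis it ran Hspb1, Hsp90ab1, Dnajb1, Hspa8, Hspa1a, Hsp90aa1, Hspe1, Hspd1, Hspa1b and Hsph1. Neighbours whose means differed by no more than the larger of their SDs could not be placed (n = 3). These were Dnajb1 (299 ± 78.0 TPM), Hspa8 (298 ± 109 TPM) and Hspa1a (224 ± 35.4 TPM), then Hsp90aa1 (99.4 ± 49.8 TPM), Hspe1 (77.8 ± 27.5 TPM) and Hspd1 (74.1 ± 18.5 TPM), and then Hspa1b (36.3 ± 2.7 TPM) and Hsph1 (32.2 ± 9.95 TPM). In wound dermis it ran Hspa8, Hsp90ab1, Hsp90aa1, Hspb1, Hspe1, Dnajb1, Hspd1, Hsph1, Hspa1a and Hspa1b. By the same rule no neighbours from Hsp90aa1 (124 ± 17.5 TPM) through Hspb1 (116 ± 103 TPM), Hspe1 (104 ± 9.0 TPM), Dnajb1 (78.7 ± 28.1 TPM) and Hspd1 (73.1 ± 1.1 TPM) to Hsph1 (57.6 ± 15.8 TPM) could be placed. The SD of Hspb1 was so wide that its mean was also within it of Hspa1a (23.5 ± 9.68 TPM). Hspa8 headed the list in wound dermis at 443 ± 34 TPM (SD, n = 3) and Hspa1a was next to last.

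Together the 10 genes made up 2512 ± 279 TPM in wound epidermis and 1359 ± 110 TPM in wound dermis (SD, n = 3 each), or 0.251% and 0.136% of the transcripts. Their make-up differed too. Hspb1 was 41.0%, 37.2% and 26.2% of the sum in wound epidermis, against 5.64%, 15.8% and 3.13% in wound dermis. Hspa8 was 11.3%, 8.3% and 15.6% of the sum in wound epidermis, against 30.1%, 31.5% and 36.4% in wound dermis. Hspb1 and Hsp90ab1 held the highest shares in each wound epidermis library, and Hspa8 and Hsp90ab1 in each wound dermis library.

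The libraries of a group varied in different ways for the genes that passed and those that did not. Passing depended on these same values and their spread, so the comparison describes the libraries only. For all 6 genes that did not pass, wound epidermis replicate 3 was the highest wound epidermis library, and for 0 of the 4 that passed was it so. The factor of the median-of-ratios scaling, taken over all genes, was also largest for that library. It was 0.9785 there, against 0.8836 in wound epidermis replicate 1 and 0.7405 in replicate 2. The highest wound epidermis library was 1.39 to 2.54 times the lowest for those 6, while the wound dermis libraries spread by 1.03 to 1.63 times. For the 4 genes that passed it was the other way round, with 1.16 to 1.69 times in wound epidermis and 1.80 to 5.91 times in wound dermis. Wound dermis replicate 2 was the highest and replicate 3 the lowest wound dermis library for all 4. The share of all tested genes with either of these orders was not counted. Wound epidermis replicate 3 also had the highest summed level of basal keratinocyte markers, 17630 TPM against 9724 and 6703 TPM in replicates 1 and 2, and the lowest of differentiating markers, 35770 TPM against 58560 and 84330 TPM. The part of this difference in the chaperone values was not tested.

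The wound dermis levels of the 4 genes that passed are set here beside those of the keratinocyte markers. Hspb1 in wound dermis replicates 1, 2 and 3 stood at 8.62%, 26.6% and 4.50% of its wound epidermis mean, Hspa1a at 9.84%, 15.1% and 6.54%, Hspa1b at 13.7%, 15.1% and 5.20%, and Dnajb1 at 21.2%, 37.2% and 20.6%. The basal keratinocyte markers stood there at 16.2%, 29.5% and 2.08% of their wound epidermis mean. The differentiating keratinocyte markers stood at 0.898%, 22.6% and 0.515%. The part of keratinocyte transcripts in the chaperone values of wound dermis was not tested. The differences were no smaller without wound dermis replicate 2, at 3.95 for Hspb1, 3.56 for Hspa1a, 3.17 for Hspa1b and 2.21 for Dnajb1 on the log2 scale, all past the threshold. The other 6 genes did not pass without it either, at -0.60 for Hspa8, -0.97 for Hsph1 (limma adjusted p = 0.051), -0.51 for Hsp90aa1, 0.47 for Hsp90ab1, -0.0041 for Hspd1 and -0.46 for Hspe1. The log2 differences of the ratios without it were 4.22 for Hspa1a and Hspa1b over Hspa8, 2.83 for Dnajb1 over Hspa8, -0.98 for Hsp90aa1 over Hsp90ab1, -0.46 for Hspe1 over Hspd1 and 0.06 for Hspa1a over Hspa1b.

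Scaling moved all genes at once, though not by the same amount. TPM is a share, and Actb, β-actin, the most abundant gene, took 39811 ± 4990 TPM in wound epidermis and 126190 ± 25766 TPM in wound dermis (SD, n = 3 each). Without the 50 most abundant genes the median log2 fold change of all tested genes was -0.47, lower than with them. The part of Actb alone was not tested. The median log2 fold change of all tested genes was -0.42 on TPM as deposited, -0.03 with median-of-ratios scaling and 0.08 with quantile normalization. Of all genes that passed, 30.2%, 47.2% and 52.8% were higher under these scalings. With those medians subtracted, and in the same order, the log2 fold change of Hspa1a was 3.69, 3.76 and 3.33, that of Hspa1b 3.37, 3.39 and 3.37, that of Hspb1 3.68, 3.76 and 2.99, and that of Dnajb1 2.36, 2.44 and 1.85. All 4 passed under each scaling. Genes that did not pass on TPM as deposited also moved after the medians were subtracted. In the same order, Hspa8 stood at -0.21, -0.13 and -0.99, and Hsp90ab1 at 0.98, 1.06 and 0.16. Median-of-ratios scaling added Hsp90ab1 and Hspd1 to those higher, which made 6.

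**Figure D4:**
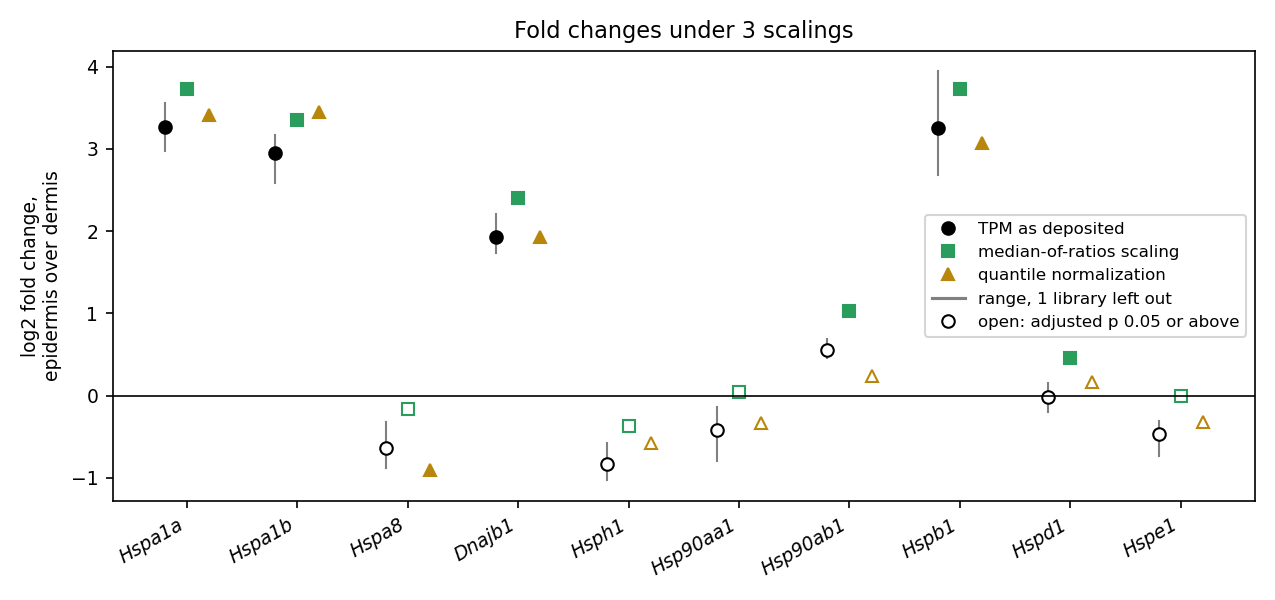
Log2 fold changes of the chaperone genes, wound epidermis over wound dermis, on TPM as deposited, with median-of-ratios scaling and with quantile normalization. Filled symbols passed an adjusted p of 0.05, and grey lines span the values with 1 library left out; Hspa1a, Hspa1b, Hspb1 and Dnajb1 are filled under all 3 scalings.

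Promoter sequences were at hand for the rat only, as RefSeq windows from 250 bases before to 50 bases after each annotated start (GRCr8), and 8 of the 10 genes had one by symbol. Heat shock factors bind inverted repeats of the triplet GAA. The search was for 3 such units in a row, GAANNTTCNNGAA or TTCNNGAANNTTC, each the reverse complement of the other, so that both strands were read. It matched in 4 of the 8 windows, those of Hspa8, Hsph1, Hspd1 and Hspe1, and in 0.798% of all 33469 windows. The windows of Hspd1 and Hspe1 overlap and hold the same site. Stretches of 3 windows are printed, plus strand, 5′ to 3′, with the matched units in capitals, because they show the element in genes that did not pass the test in mouse: Hspa8 from chr8:50080419-50080511, Hsph1 from chr12:10427292-10427384 and Hspe1 from chr9:64084222-64084319.
Hspa8: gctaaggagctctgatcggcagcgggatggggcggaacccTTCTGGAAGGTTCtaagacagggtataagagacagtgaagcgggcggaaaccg
Hsph1: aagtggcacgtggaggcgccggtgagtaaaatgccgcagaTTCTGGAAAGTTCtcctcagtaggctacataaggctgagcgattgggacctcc
Hspe1: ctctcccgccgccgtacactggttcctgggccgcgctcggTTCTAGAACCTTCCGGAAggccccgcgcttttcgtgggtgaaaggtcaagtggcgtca
In Hspe1 the capitals hold 2 overlapping matches. The rat windows of Hspb1 and Dnajb1 each held 2 matches of the shorter pair GAANNTTC, found in 8.59% of all windows, and those of Hspa1a and Hsp90ab1 held neither that pair nor TTCNNGAA, found in 8.77%. A match describes letters in this window of another species, and a missing match says only that these letters are not in it.

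The wider chaperone network was described from 8 lists of genes by role, 99 genes in all other than the 10, of which 94 were tested. Of these, 13 (13.8%) were higher in wound epidermis and 31 (33%) lower, beside 17.0% and 39.3% of all tested genes, with a median log2 fold change of -0.31. Without wound epidermis replicate 1 there were 7 higher and 19 lower. Without wound dermis replicate 2 there were 11 higher and 24 lower. Without wound dermis replicate 1 there were 7 higher, and without wound dermis replicate 3 there were 8 higher and 20 lower. Median-of-ratios scaling gave 26 higher and 15 lower.

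**Figure D5:**
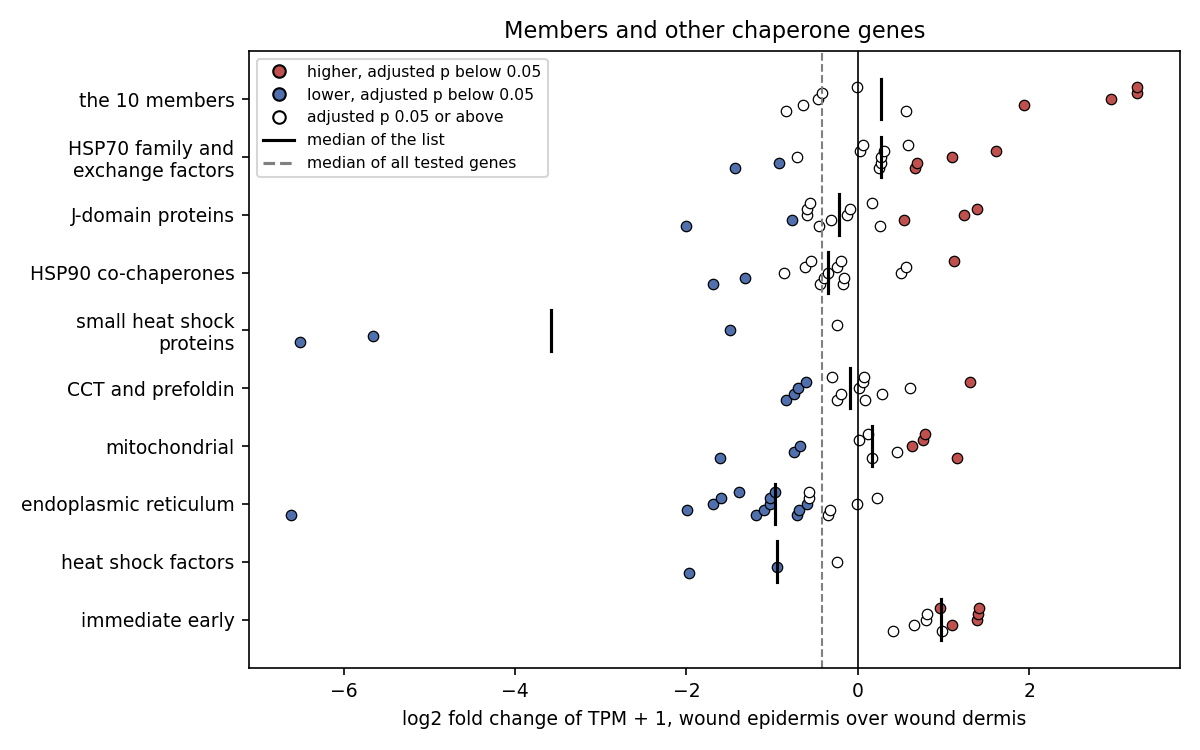
Log2 fold change, wound epidermis over wound dermis, of the tested genes of each chaperone list and of the immediate early genes. Red and blue points passed an adjusted p of 0.05, higher and lower, open points did not, black bars are list medians and the dashed line is the median of all tested genes, -0.42; the small heat shock proteins and the endoplasmic reticulum chaperones extend to about -6.5.

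Among 14 further HSP70 family members and cytosolic exchange factors, 4 were higher and 2 lower, with a median log2 fold change of 0.27. The exchange factor Bag2 stood at 26.0 ± 2.26 TPM in wound epidermis, against 7.96 ± 2.23 TPM in wound dermis (SD, n = 3 each), and its log2 fold change was 1.62 (limma adjusted p = 0.0012). Bag4 was higher by 1.09 (limma adjusted p = 0.0019). Hspa2, known from spermatogenesis, fell to 3.70 ± 0.87 TPM in wound epidermis, against 11.7 ± 2.79 TPM in wound dermis (SD, n = 3 each). The abundant Bag1 (0.27, limma adjusted p = 0.34) and the HSP110 relative Hspa4 (0.59, limma adjusted p = 0.10) did not pass, though Hspa4 did without wound dermis replicate 2 (0.78, limma adjusted p = 0.046). Without wound epidermis replicate 1, wound dermis replicate 1 or wound dermis replicate 3, 2 of the list were higher.

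Of 14 J-domain proteins other than Dnajb1, 3 were higher and 2 lower, with a median log2 fold change of -0.22. Dnaja1, a cytosolic partner of HSC70, fell to 41.3 ± 17.3 TPM in wound epidermis, against 158 ± 16.9 TPM in wound dermis (SD, n = 3 each), and its log2 fold change was -2.01 (limma adjusted p = 0.0028), opposite in sign to Dnajb1. Dnaja4 (1.40, limma adjusted p = 0.0029) and Dnajb2 (1.24, limma adjusted p = 0.0023) were higher. The abundant Dnajb6 and Dnajc7 did not pass, at 0.26 and -0.31. Without wound epidermis replicate 1 or wound dermis replicate 1, 1 of the list was lower.

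HSP90 co-chaperones mostly did not pass. Of 15, 1 was higher and 2 were lower, with a median log2 fold change of -0.35. Fkbp5, an immunophilin of steroid receptor complexes, fell to 12.5 ± 2.08 TPM in wound epidermis, against 43.7 ± 15.03 TPM in wound dermis (SD, n = 3 each; -1.69, limma adjusted p = 0.0023). St13, a cofactor of HSC70, fell to 190 ± 57.3 TPM in wound epidermis, against 460 ± 28.0 TPM in wound dermis (SD, n = 3 each; -1.32, limma adjusted p = 0.0054). Unc45a, a chaperone of myosin, was higher (1.12, limma adjusted p = 0.0035). Ptges3, the co-chaperone p23, was the most abundant, at 771 ± 217 TPM in wound epidermis, compared with 954 ± 50.5 TPM in wound dermis (SD, n = 3 each) and did not pass (limma adjusted p = 0.30).

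Opposite in sign to Hspb1, 3 of 4 tested small heat shock proteins were lower by limma, beside 39.3% of all tested genes. None was higher, also at an unadjusted p under 0.05 (0 higher). The median log2 fold change was -3.58. Hspb2 and Hspb6 were below 1 TPM in every wound epidermis library and passed the filter on low values only through wound dermis. They could hardly come out other than lower, and only 4 of the 8 listed genes were tested. The count and the median are therefore partly set by the filter. Cryab, αB-crystallin, which is abundant in muscle and lens, stood at 0.68, 2.82 and 1.10 TPM in wound epidermis, against 225.24, 192.07 and 234.01 TPM in wound dermis. Its neighbour Hspb2 stood at 0.63, 0.00 and 0.15 TPM in wound epidermis, against 55.43, 49.76 and 83.51 TPM in wound dermis. Both were at or near 0 in wound epidermis and not in wound dermis, with log2 fold changes of -6.51 (limma adjusted p = 1.33e-05) and -5.66 (1.50e-05). Hspb6 was low throughout and lower in wound epidermis (-1.49, limma adjusted p = 0.0017), and Hspb8 did not pass (-0.24, 0.41). The 4 smooth muscle or myofibroblast markers summed to 1.31 to 7.99 TPM in wound epidermis and 278.8 to 422.6 TPM in wound dermis, all 4 lower in wound epidermis. The 4 skeletal muscle markers summed to 0.11 to 0.49 TPM and 6.28 to 29.46 TPM, with 1 of 4 lower and Myh4 below 1 TPM in every library. Their part in these values was not tested.

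Of 14 subunits of the CCT ring and of prefoldin, which fold and deliver actin and tubulin, 1 was higher and 4 were lower, with a median log2 fold change of -0.09. Cct6a reached 679 ± 60.7 TPM in wound epidermis, against 274 ± 33.9 TPM in wound dermis (SD, n = 3 each; 1.31, limma adjusted p = 0.0016), and no other gene of the list passed as higher. The prefoldin subunits Pfdn5 (-0.75, limma adjusted p = 0.018) and Vbp1 (-0.70, 0.024) were lower. Neither passed without wound epidermis replicate 1 or wound dermis replicate 3 or after median-of-ratios scaling, and Vbp1 did not without wound epidermis replicate 2 or wound dermis replicate 2 or after quantile normalization. Without wound epidermis replicate 1 or wound dermis replicate 3, 0 of the list were lower.

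Mitochondrial chaperones and proteases other than Hspd1 and Hspe1 were mixed, 4 of 11 higher and 3 lower, with a median log2 fold change of 0.16. Clpx, which unfolds proteins for the ClpP protease, stood at 71.5 ± 4.41 TPM in wound epidermis, against 33.0 ± 12.2 TPM in wound dermis (SD, n = 3 each; 1.15, limma adjusted p = 0.010). The protease Htra2 fell to 13.9 ± 5.32 TPM in wound epidermis, against 43.1 ± 11.02 TPM in wound dermis (SD, n = 3 each; -1.61, limma adjusted p = 0.0048). Clpb was higher (0.79, limma adjusted p = 0.015) and Trap1, the HSP90 of mitochondria, lower (-0.67, 0.042), as was Dnajc19 (-0.75, 0.040). Clpb did not pass without wound epidermis replicate 1 or wound dermis replicate 1 or 3. Trap1 and Dnajc19 failed when any of 5 of the 6 libraries was left out, passing only without wound epidermis replicate 3. Without wound epidermis replicate 1 or wound dermis replicate 1, 1 of the list was higher and 1 lower.

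Chaperones of the endoplasmic reticulum, which fold secreted proteins, were lower in 13 of 19 cases (68.4%) by limma, beside 39.3% of all tested genes. They were higher in 0, also at an unadjusted p under 0.05 (0 higher), with a median log2 fold change of -0.97. Serpinh1, HSP47, a chaperone dedicated to collagen, stood at 50.09, 10.43 and 69.10 TPM in wound epidermis, against 3169.39, 2666.21 and 4504.35 TPM in wound dermis (-6.61, limma adjusted p = 0.00020). All 6 fibroblast markers were lower alongside it, and their part was not tested. Dnajc10, a reductase of misfolded proteins, was at 5.87 ± 1.13 TPM in wound epidermis, compared with 26.2 ± 2.23 TPM in wound dermis (SD, n = 3 each; -1.99, limma adjusted p = 0.00027), and Sdf2l1 was lower too (-1.69, 0.0063). Hspa5, BiP, the HSP70 of this compartment, was at 624 ± 9.47 TPM in wound epidermis, compared with 797 ± 118 TPM in wound dermis (SD, n = 3 each) and did not pass (-0.34, limma adjusted p = 0.20). Without wound epidermis replicate 1 or 2 or wound dermis replicate 3, 8 of the list were lower, and after median-of-ratios scaling 6 were.

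Of the genes of heat shock factors and their binding protein Hsbp1, 2 of 3 tested were lower by limma, beside 39.3% of all tested genes. Higher were 0, also at an unadjusted p under 0.05 (0 higher), with a median log2 fold change of -0.94. Hsf2 fell to 31.8 ± 10.98 TPM in wound epidermis, against 124 ± 26.0 TPM in wound dermis (SD, n = 3 each; -1.97, limma adjusted p = 0.0017). Hsf1, the main stress-responsive factor, stood at 13.02, 6.36 and 12.95 TPM in wound epidermis, against 17.34, 21.18 and 23.96 TPM in wound dermis (-0.94, limma adjusted p = 0.033). Hsf1 did not pass without wound dermis replicate 1 (0.052), 2 (0.072) or 3 (0.10), nor under either other scaling. Hsbp1, which binds HSF1, did not pass (-0.25, limma adjusted p = 0.38).

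Immediate early genes, whose transcripts appear within minutes of a stimulus and also during tissue handling, were counted beside the chaperones. Of 10, 5 were higher by limma, beside 17.0% of all tested genes. Lower were 0, also at an unadjusted p under 0.05 (0 lower), with a median log2 fold change of 0.97. Junb stood at 746.18, 676.61 and 695.39 TPM in wound epidermis, against 342.97, 303.41 and 184.00 TPM in wound dermis (1.40, limma adjusted p = 0.0043). Ier2 (1.41, limma adjusted p = 0.0090), Jun (1.10, 0.0074) and Dusp1 (0.96, 0.020) were higher too, Dusp1 not without wound epidermis replicate 1 (0.072) or wound dermis replicate 3 (0.073) or after quantile normalization (0.19). Fos was at 517 ± 77.3 TPM in wound epidermis, compared with 317 ± 144 TPM in wound dermis (SD, n = 3 each) and did not pass (0.81, limma adjusted p = 0.10). The count was 3 without wound epidermis replicate 1 or wound dermis replicate 3, and 9 without wound dermis replicate 1. Their part in the chaperone values was not tested.

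Genes with the most similar pattern were sought over the 6 libraries among 8008 genes averaging at least 10 TPM, by the root mean square difference of log2(TPM + 1) centred on its mean. Nearest to Hspa1a and Hspa1b summed were Tmprss11d (0.19) and Cds1 (0.22). Nearest to Hspb1 were Rdh12 (0.16), Nipal2 (0.17) and Acsl1 (0.19). Rdh12 stood at 143.83, 116.08 and 103.27 TPM in wound epidermis, against 8.17, 31.07 and 3.54 TPM in wound dermis, and so shared with Hspb1 both the order of the wound epidermis libraries and the high wound dermis replicate 2. Nearest to Hspd1 were Irf3 (0.061), Sppl2a (0.062) and Hat1 (0.065).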

How the data were processed

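RNA of whole tissue was profiled by SMART-seq2, which copies full-length cDNA, in 6 mouse libraries; single-end reads of 43 or 86 bases are named per the labels' protocols, without saying which library had which. The TPM values were computed and deposited by the authors, with Bowtie 1.0.0, RSEM 1.2.31 and mm10 named per the submitters' processing notes; their annotation and any strand setting are not named there. RSEM is built to divide reads that match several genes, so near-identical copies share them. Ensembl identifiers were paired with symbols for 49289 of 49548 genes, and for 15946 of the 15982 tested.

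log2(TPM + 1) was tested with limma 3.58.1 in R 4.3.3 with the mean-variance trend, keeping genes that reached 1 TPM in 3 or more of 6 libraries. P-values were adjusted by Benjamini-Hochberg over all tested genes, threshold 0.05. Ratios were tested by exact permutation over libraries. The fit was tested on simulated data with 100 genes changed by 1 and 100 by 2 on the log2 scale, among 15982. It recovered 14% and 70% of them. Far fewer genes were changed there than passed in these data, so these rates need not hold here. A gene that did not pass may still differ. Coordinates are 1-based mm10, from GENCODE. Sequence windows of 43 and 86 bases were matched to all annotated transcripts (Python 3.11.15, Biopython 1.88). Alternatives were other pseudocounts, filters, scalings, leaving out each library, a replicate block and summed copies.

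The members and lists were chosen with earlier results of these data known. Named genes are the 10 members; per list the 3 with the smallest adjusted p and the 2 most abundant, and the 3 nearest patterns, of which 1 gene is not reported here. Fos, Gm20481, Gm15459 and Actb were named in addition, after their values were seen. Not tested for low values were Cryaa, Hspb3, Hspb7, Hspb9 and Hsf4.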

Additional observations from a re-analysis of the deposited data

How the results depend on the processing

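The 4 genes called higher, Hspa1a, Hspa1b, Hspb1 and Dnajb1, passed under every alternative run for them, and their count was 4 with each library left out. Over all member fold changes, 148 alternative values stayed on their side of the threshold, 9 newly passed it in the same direction, and Hspd1 passed with the other sign, at 0.46 under median-of-ratios scaling; the cause was not tested. In all, 6 values changed sign, 5 of them not past the threshold: Hsp90aa1 (0.05) and Hspe1 (0.00059) under median-of-ratios scaling, and Hspd1 under quantile normalization (0.16) and without wound epidermis replicate 1 (0.0090) or 2 (0.15). The count of members lower was 1 with a filter of 5 TPM, 1 under quantile normalization, 1 without the 50 most abundant genes, and 0 to 4 with 1 library left out. Other chaperones higher numbered 26 under median-of-ratios scaling, 21 under quantile normalization and 7 to 11 with 1 library left out, against 13; those lower numbered 15 under median-of-ratios scaling and 19 to 33 with 1 left out, against 31. Over all genes, 2721 were higher, against 4342 and 4694 under those scalings. The ratio of Hspa1a to Hspa1b ranged from -0.17 to 0.23 (log2) with 1 library left out. The scalings differ in how they treat the tissues' unequal make-up; which is right was not tested.

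The labels number the replicates alike in both tissues. After subtracting tissue means, epidermis and dermis libraries with equal numbers had correlations over genes of -0.135, 0.0859 and 0.189, so the numbers were not taken as pairs. With the replicate block, 4 members were higher and 1, Hsph1, lower (limma adjusted p = 0.045), with 9 higher and 26 lower among other chaperones, and 2464 higher and 5940 lower among all genes; each ratio's sign-flip p was at least 0.25, the smallest that 3 pairs allow. Reads per library are unknown, which limits what can be said of genes near 1 TPM.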
